A study of Caenorhabditis elegans with 6 samples.

Results

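Levels of 10 mitochondrial tricarboxylic acid (TCA) cycle enzyme genes were compared between starved lin-35(n745) and wild-type larvae of the nematode Caenorhabditis elegans. The genes were cts-1, aco-2, idha-1, idhb-1, idhg-1, ogdh-1, dlst-1, dld-1, fum-1 and mdh-2. They were chosen by name, as genes whose symbol was the single symbol given to a probe set of the array, and all 10 were measured among the 17118 genes that could be named in this way. Each gene was represented by its probe set with the brightest mean over the 6 arrays, and 5 of the 10 also had a second, dimmer probe set. The mutant group consisted of 3 arrays of lin-35(n745) larvae, whose gene for the retinoblastoma homologue LIN-35 holds a premature stop, and the control group of 3 arrays of wild-type larvae. In both groups eggs hatched in S-basal buffer lacking cholesterol and food, and first-stage (L1) larvae were collected after 30 h at 20 °C. RNA came from whole larvae, so fewer cells of a type and less RNA per cell cannot be told apart, and with no fed larvae each difference is one between genotypes within starvation.

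The TCA cycle runs in the mitochondrial matrix, where it oxidises acetyl-CoA to carbon dioxide and passes electrons to the respiratory chain. Citrate synthase starts the cycle, aconitase turns citrate into isocitrate, and 2 oxidative decarboxylations by isocitrate dehydrogenase and the 2-oxoglutarate dehydrogenase complex follow before succinate, fumarate and malate are converted back to oxaloacetate. In nematodes isocitrate can also leave the cycle through the glyoxylate shunt, which lets larvae make carbohydrate from stored fat. LIN-35 is a transcriptional repressor that acts in the DREAM complex with E2F and DP proteins.

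Levels are given in log2 units as produced by RMA, the robust multi-array average, differences are lin-35(n745) minus wild type in log2 units, and a gene is said to rise or fall when its limma p, adjusted over all 22548 probe sets, is below 0.05. Of those probe sets 11.3% passed, 5.69% higher and 5.59% lower. Of the 10 enzymes, 1 rose and 3 fell in the mutant, which is 40% of them, while 11.8% of all genes passed (5.71% higher and 6.12% lower). Among the 2138 genes at least as bright as the dimmest of the 10 enzymes (a mean of 9.385), 19.7% passed, 4.63% higher and 15.1% lower, so that falling genes were more frequent at this brightness. Aconitase aco-2 was the one that rose, by 3.21. The lipoamide dehydrogenase gene dld-1, the succinyltransferase gene dlst-1 and the isocitrate dehydrogenase subunit gene idhg-1 fell by 1.06, 0.88 and 0.66. The median difference of the 10 was −0.12, beside −0.04 over all genes and −0.17 over genes of that brightness, and it was 0.06 after cyclic loess normalization.

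Facts of the arrays that touch these results are as follows. Over all probe sets 1282 rose and 1260 fell, a split that became 1277 and 2117 when arrays were centred on their medians and 1481 and 1007 after cyclic loess. The medians of the deposited values were not equal. They were 5.976, 6.113 and 5.914 on mutant replicates 1 to 3 and 5.926, 5.913 and 5.908 on wild-type replicates 1 to 3. As a measure of RNA quality, the 3' probe set of the actin control exceeded its 5' probe set by log2 values of 2.31, 0.41 and 1.23 on mutant replicates 1 to 3, against 0.53 to 0.78 on the wild-type arrays. Mutant replicate 1 gave the lowest of the 3 mutant values for 8 of the 10 enzymes, against 33.7% of all genes, and the highest for the other 2, idha-1 and idhb-1. Markers of body wall muscle, a tissue rich in mitochondria, averaged 11.4 to 11.6 on the mutant arrays, against 10.9 on wild-type replicate 2 and 11.7 and 11.9 on the other wild-type arrays, and 0 of 9 passed (0 also at an unadjusted limma p below 0.05). Of 7 neuron markers 2 fell (ric-4 and snt-1), with list means of 9.90 to 10.0 in the mutant and 10.3 to 10.5 in the wild type. Of 8 intestine markers 2 rose (act-5 and elt-2) and 3 had negative differences, the lowest −0.62 for vha-6. Their list means were 9.77 to 9.96 in the mutant and 9.42 to 9.58 in the wild type. Of 7 hypodermis markers 1 fell (dpy-5, difference −3.41), while the others differed by −0.27 to 0.54. Their list means were 7.72 to 7.83 in the mutant and 7.87 to 8.53 in the wild type, a gap that rests largely on dpy-5. Of 7 germline markers 3 rose (glh-1, pgl-1 and pgl-3), with means of 7.35 to 7.54 in the mutant and 5.50 to 6.03 in the wild type. The median differences of the lists were −0.12 for muscle, −0.43 for neurons, 0.30 for intestine, −0.08 for hypodermis and 0.63 for germline. The shares called were 28.6% for neurons, 25% for intestine, 14.3% for hypodermis and 42.9% for germline. Of all genes 11.8% passed, 5.71% higher and 6.12% lower, and counts of so few markers were not tested against these shares. The part of RNA quality and of these tissues in the enzyme results was not tested, beyond the fits without single arrays and with the actin difference as a covariate given below. The 5 adult yolk genes measured lay between 3.01 and 5.62 on every array. The brighter lin-35 probe set read 7.42 ± 0.25 in lin-35(n745) and 7.36 ± 0.19 in wild type (SD, n = 3 each; difference 0.06, adjusted p = 0.894), and its sign turned in 7 of 20 alternatives, so it does not check the genotype labels, the allele being a point mutation.

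**Figure D1:**
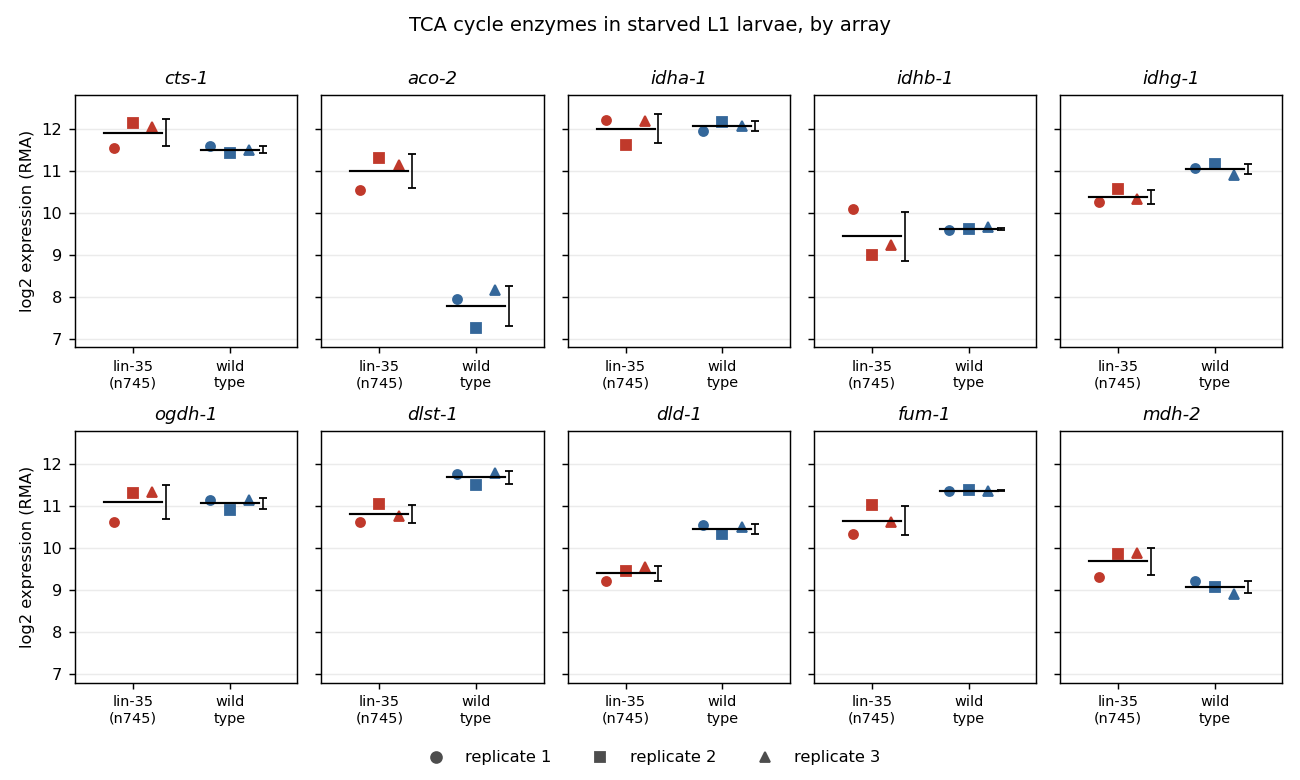
Log2 expression (RMA) of the 10 enzymes on each array, 1 panel per gene, with lin-35(n745) in red and wild type in blue; symbols give the replicate, horizontal lines the mean and error bars the SD (n = 3). The mutant arrays lie at 10.551 to 11.315 for aco-2, with the wild-type arrays at 7.253 to 8.154, and they lie below the wild-type arrays for idhg-1, dlst-1, dld-1 and fum-1.

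Mitochondrial aconitase differed far more than any other of the 10 enzymes. The aco-2 probe set read 10.551, 11.315 and 11.138 on the lin-35(n745) arrays, against 7.954, 7.253 and 8.154 on the wild-type arrays. Every mutant array thus lay more than 2 log2 units above every wild-type array, and the SD was 0.40 in the mutant and 0.47 in the wild type (n = 3 each). The difference of 3.21 (SE 0.30, 95% interval 2.52 to 3.91, limma adjusted p = 0.00132) corresponds to 9.28-fold, and it ranked 59 from the top of the 17118 genes. Differences of at least 3 were seen in 81 genes (0.473%). The gene passed in all 19 alternatives that measured it, with differences of 2.95 to 3.53 and adjusted p of 0.000246 to 0.0349. The single probe set that measures aco-2 is of a type that can match several transcripts, as are those of 5 more of the 10 enzymes (cts-1, idhb-1, ogdh-1, dlst-1 and mdh-2). The cytosolic aconitase gene aco-1 was lower in the mutant. It read 10.025, 10.096 and 10.125 in the mutant, against 10.727, 11.083 and 10.794 in the wild type, without overlap. It fell by 0.79 (SE 0.15, adjusted p = 0.0209). The adjusted p was 0.064, 0.0605 and 0.0549 with wild-type replicate 1, 2 or 3 left out, so each of these fits lost the call, as did the one with the actin covariate (difference −0.77, 0.0592), and all alternatives lay between 0.0159 and 0.958.

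Citrate synthase and malate dehydrogenase, the enzymes on either side of oxaloacetate, had higher mutant means without passing the threshold. The citrate synthase gene cts-1 read 11.548, 12.147 and 12.035 in lin-35(n745), against 11.587, 11.432 and 11.495 in wild type. Mutant replicate 1 lay within the wild-type range and the other mutant arrays above it, and the difference was 0.41 (95% interval −0.04 to 0.86, adjusted p = 0.234). The malate dehydrogenase gene mdh-2 read 9.310, 9.871 and 9.888 in lin-35(n745), against 9.228, 9.091 and 8.921 in wild type. Its groups did not overlap, although mutant replicate 1 was separated from the nearest wild-type array by less than 0.1, and the difference was 0.61 (SE 0.20, 95% interval 0.13 to 1.09, adjusted p = 0.103). It passed without mutant replicate 1 (difference 0.80, adjusted p = 0.0341) and with the actin covariate (0.82, adjusted p = 0.0486), and over the alternatives that p lay between 0.0341 and 1. Its dimmer probe set read 9.773, 9.026 and 9.100 in lin-35(n745) and 9.075, 8.577 and 8.991 in wild type, with overlap and a difference of 0.42 (adjusted p = 0.352). The cytosolic malate dehydrogenase gene mdh-1 differed by −0.16 (95% interval −0.62 to 0.31, adjusted p = 0.71).

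The NAD-dependent isocitrate dehydrogenase is built from alpha, beta and gamma subunits, encoded by idha-1, idhb-1 and idhg-1, and each gene had 2 probe sets. All 6 probe sets had a lower mean in the mutant. In 3 of them the mutant arrays all lay below the wild-type arrays, as in 18.2% of all genes by their brightest probe set. That share was not worked out for genes as bright as the enzymes. The gamma subunit idhg-1 read 10.253, 10.576 and 10.326 in lin-35(n745), against 11.071, 11.163 and 10.913 in wild type, so that all mutant arrays were below all wild-type arrays. It fell by 0.66 (SE 0.16, adjusted p = 0.0393). This call was held without mutant replicate 2 (0.0429) and lost without mutant replicate 1 (0.0882) or 3 (0.0942) and without wild-type replicate 1 (0.141), 2 (0.114) or 3 (0.0715). It was also lost after repeated quantile normalization (0.0740), after cyclic loess (0.0908) and with the actin covariate (difference −0.55, 0.117), and over the alternatives its adjusted p lay between 0.0221 and 1. The dimmer idhg-1 probe set differed by −0.49 (adjusted p = 0.234), with mutant replicate 1, at 10.520, inside the wild-type range of 10.455 to 10.545. Without that array it differed by −0.74 and passed (adjusted p = 0.0342, the lowest over the alternatives, where the highest was 1).

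The beta subunit fell on its dimmer probe set and did not pass on its brighter one, whose 95% interval (−0.84 to 0.48) held the dimmer difference. The brighter idhb-1 probe set read 10.094, 9.002 and 9.228 in lin-35(n745), against 9.602, 9.610 and 9.656 in wild type. The wild-type arrays lay close together, whereas mutant replicate 1 lay above them and the other mutant arrays below, and the difference was −0.18 (SE 0.28, adjusted p = 0.773). The dimmer probe set read 8.569, 8.842 and 8.604 in lin-35(n745), against 9.369, 9.569 and 9.294 in wild type. There the groups did not overlap and the level fell by 0.74 (SE 0.16, adjusted p = 0.027). That call was lost without mutant replicate 1 (0.0608) or 3 (0.0703) and without wild-type replicate 1 (0.0988), 2 (0.0832) or 3 (0.0586). It was also lost with trend and robust variance settings (0.0578) and with the actin covariate (difference −0.65, 0.0817), and the alternatives gave 0.0156 to 1. The alpha subunit idha-1 read 12.210, 11.612 and 12.196 in lin-35(n745) and 11.942, 12.175 and 12.074 in wild type on its brighter probe set, with a difference of −0.06 (95% interval −0.53 to 0.42, adjusted p = 0.911), and its sign turned after repeated quantile normalization, after cyclic loess and without mutant replicate 2. On its dimmer probe set it read 10.657, 10.931 and 10.879 in lin-35(n745) and 11.192, 11.540 and 11.336 in wild type, with no overlap and a difference of −0.53 (95% interval −0.92 to −0.15, adjusted p = 0.0798).

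Whether the probe sets of a gene differed was examined as a difference of differences. The exact two-sided permutation test used the 20 splits of the 6 arrays, and its smallest possible p is 0.1. By this exact permutation test the dimmer minus brighter difference was −0.56 for idhb-1 (p = 0.3), −0.48 for idha-1 (p = 0.3), −0.19 for mdh-2 (p = 0.8), 0.12 for ogdh-1 (p = 0.7) and 0.18 for idhg-1 (p = 0.8). None was below the threshold, which this design cannot reach, and adjusted over the 5 genes they were 0.75 or 0.8. On single arrays, the dimmer minus the brighter idhb-1 level was −1.525, −0.160 and −0.623 on mutant replicates 1 to 3, and −0.233, −0.041 and −0.362 on wild-type replicates 1 to 3. For idhg-1 it was 0.267, −0.883 and −0.480 in the mutant, and −0.616, −0.641 and −0.368 in the wild type. Mutant replicate 1, the array with the widest 3' to 5' actin difference, stood outside the range of the other 5 arrays for all 5 genes measured by 2 probe sets. Its values were −1.553 for idha-1 (−1.317 to −0.635 on the other arrays), −2.223 for ogdh-1 (−3.137 to −2.628) and 0.462 for mdh-2 (−0.845 to 0.070).

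**Figure D2:**
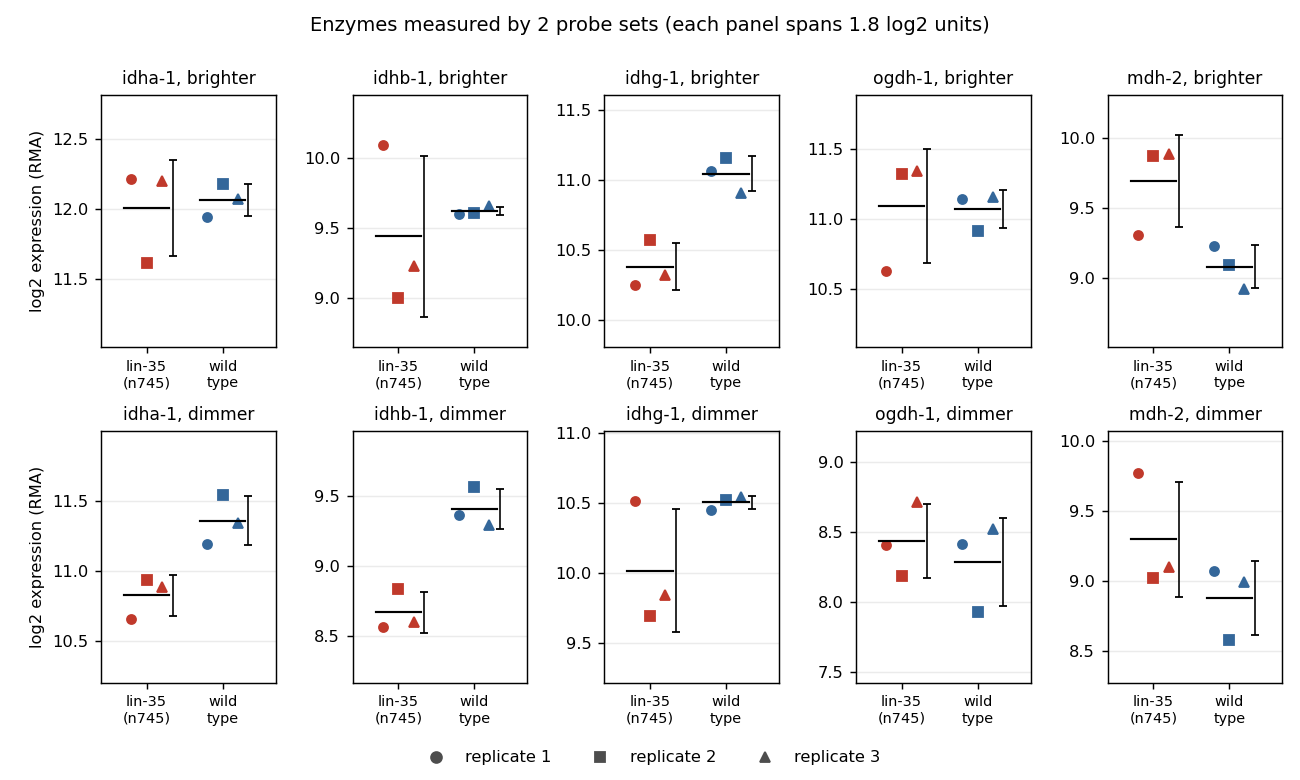
Log2 expression (RMA) of the 5 enzymes measured by 2 probe sets, the brighter in the upper row and the dimmer in the lower, with lin-35(n745) in red and wild type in blue; symbols give the replicate, lines the mean and bars the SD (n = 3). On the brighter idhb-1 and the dimmer idhg-1 and mdh-2 probe sets, mutant replicate 1 (circle) stands above the other mutant arrays.

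Within the 2-oxoglutarate dehydrogenase complex, which makes succinyl-CoA, the core and the flavoprotein fell while the decarboxylating subunit did not pass. The E3 subunit dld-1, a lipoamide dehydrogenase that the pyruvate dehydrogenase complex also uses, read 9.215, 9.451 and 9.552 in lin-35(n745), against 10.547, 10.334 and 10.502 in wild type. All mutant arrays were below all wild-type arrays and the level fell by 1.06 (SE 0.16, 95% interval −1.42 to −0.69, adjusted p = 0.00796), which is 2.08-fold lower. The call held without any 1 of the 6 arrays (adjusted p 0.0178 to 0.0463). It was lost when a fold above 1.5 was required (0.196) and with mutant replicates 1 and 3 left out together (0.0669), in a range of 0.00297 to 0.196. The E2 subunit dlst-1, the succinyltransferase that carries the lipoyl arm, read 10.622, 11.058 and 10.769 in lin-35(n745), against 11.765, 11.514 and 11.801 in wild type. Again the groups did not overlap, and the level fell by 0.88 (SE 0.17, adjusted p = 0.0216). That call was lost without mutant replicate 3 (0.0642), wild-type replicate 1 (0.0945) or wild-type replicate 3 (0.0685), after cyclic loess (0.0514), repeated quantile normalization (0.0574) or with the actin covariate (difference −0.73, 0.0601), in a range of 0.00999 to 0.684. The E1 subunit ogdh-1 read 10.626, 11.321 and 11.341 in lin-35(n745) and 11.141, 10.915 and 11.159 in wild type. Mutant replicate 1 was the lowest of all 6 arrays and mutant replicates 2 and 3 the highest, and the difference was 0.02 (95% interval −0.50 to 0.55, adjusted p = 0.967), with a sign that turned in 5 of 20 alternatives, among them median centring. The dimmer ogdh-1 probe set read 8.403, 8.184 and 8.713 in lin-35(n745) and 8.412, 7.929 and 8.519 in wild type, with overlap and a difference of 0.15 (adjusted p = 0.765). The paralogue ogdh-2 differed by 0.09 (95% interval −0.30 to 0.48).

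Fumarase, which hydrates fumarate to malate, was lower on every mutant array without passing. The fum-1 probe set read 10.330, 11.030 and 10.623 in lin-35(n745), against 11.363, 11.381 and 11.370 in wild type. The mutant arrays were spread more widely (SD 0.35) than the wild-type arrays (SD 0.01) and all lay below them, and the difference was −0.71 (SE 0.20, 95% interval −1.18 to −0.24, adjusted p = 0.0629). It passed with arrays centred on their medians (0.028) and when mutant replicate 2 was left out (0.029), and no alternative gave less than 0.028 or more than 1. Between succinyl-CoA and fumarate stand succinyl-CoA ligase and succinate dehydrogenase, which is also complex II of the respiratory chain. Of 9 such genes measured, none passed, and 2 had an unadjusted limma p below 0.05. Their median difference was −0.16, and 7 of 9 differences were negative, from −0.66 for the iron-sulphur subunit sdhb-1 (adjusted p = 0.122) to 0.06 for the flavoprotein subunit sdha-1, whose dimmer probe set differed by −0.54 (adjusted p = 0.0733). With mutant replicate 2 left out, 1 of the 9 was called lower.

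**Figure D3:**
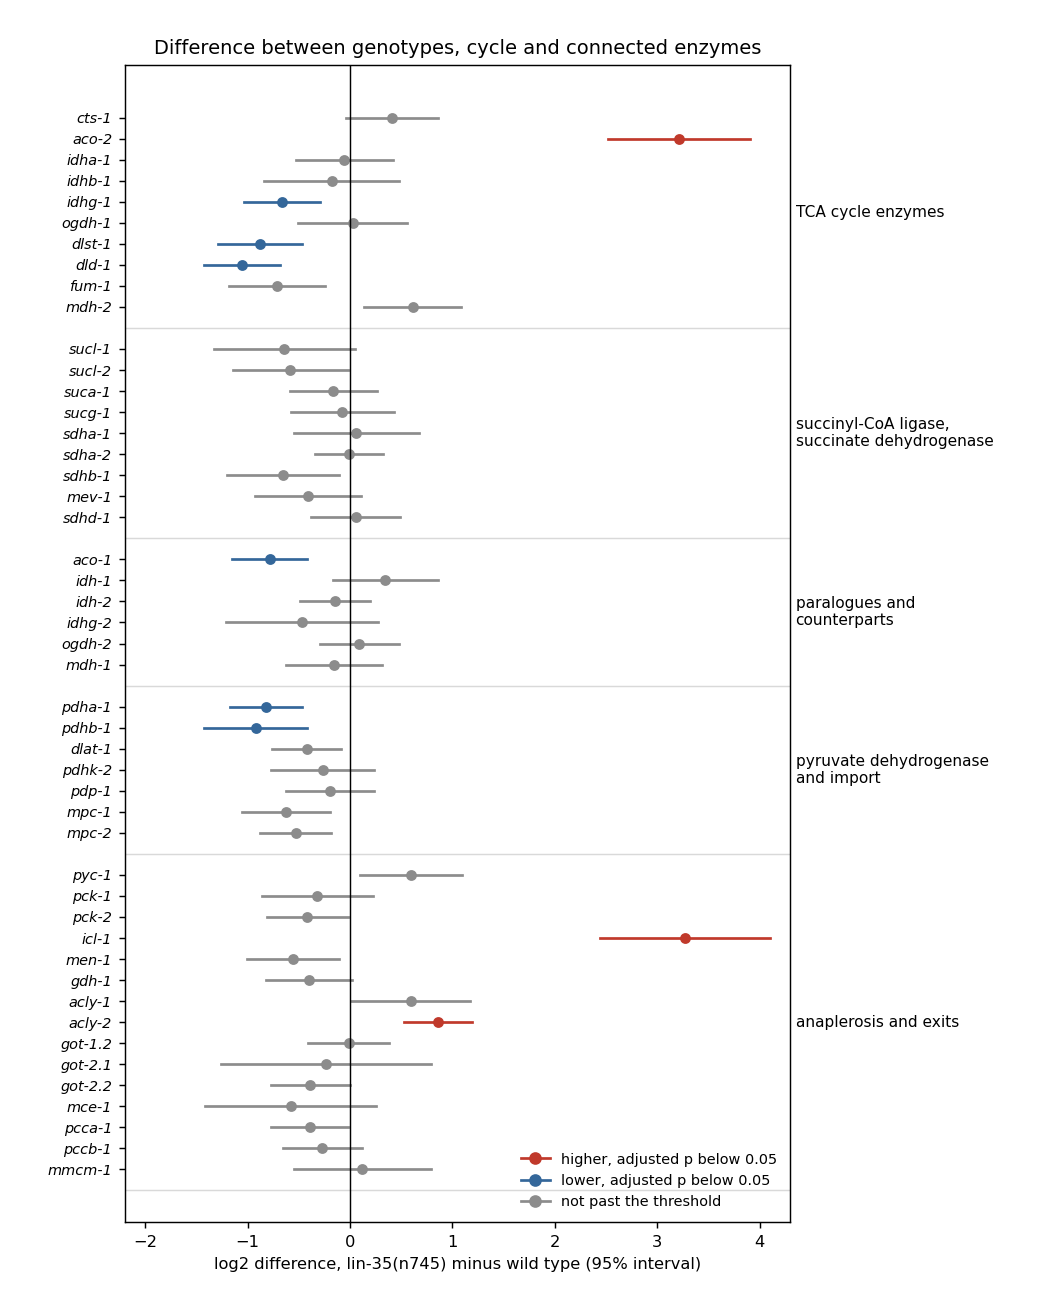
Log2 difference, lin-35(n745) minus wild type, with its 95% interval from limma, for the 10 enzymes and for 37 genes of connected steps, by group; red and blue mark genes that rose or fell and grey those that did not pass. The increases of aco-2 (3.21) and icl-1 (3.27) stand apart, and all 7 genes of pyruvate dehydrogenase and import lie below 0.

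Among the 10 enzymes, 6 had mutant and wild-type groups that did not overlap (60%, against 31.3% of all genes), 4 of them lower in the mutant (18.2% of all genes were lower without overlap). These were the called genes together with fum-1 and mdh-2. The shares without overlap were not worked out for genes as bright as the enzymes, which passed the threshold more often than all genes (19.7% against 11.8%). How far the 60% exceeds what is usual at that brightness is therefore not known. Over the 6 arrays, the levels of idhg-1, dlst-1, dld-1 and fum-1 had pairwise Pearson correlations of 0.90 to 0.97. Those of cts-1 and mdh-2 correlated at 0.96, and with aco-2 the correlation was 0.82 for cts-1 and 0.86 for mdh-2. The arrays share genotype and RNA quality, so these values describe the 6 arrays only. The genes idhg-1, dlst-1, dld-1 and fum-1 were those lower in the mutant without overlap, and cts-1, mdh-2 and aco-2 had higher mutant means. A gap between genotypes in the same direction by itself raises such a correlation. These correlations therefore cannot show whether the genes varied together within a genotype.

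**Figure D4:**
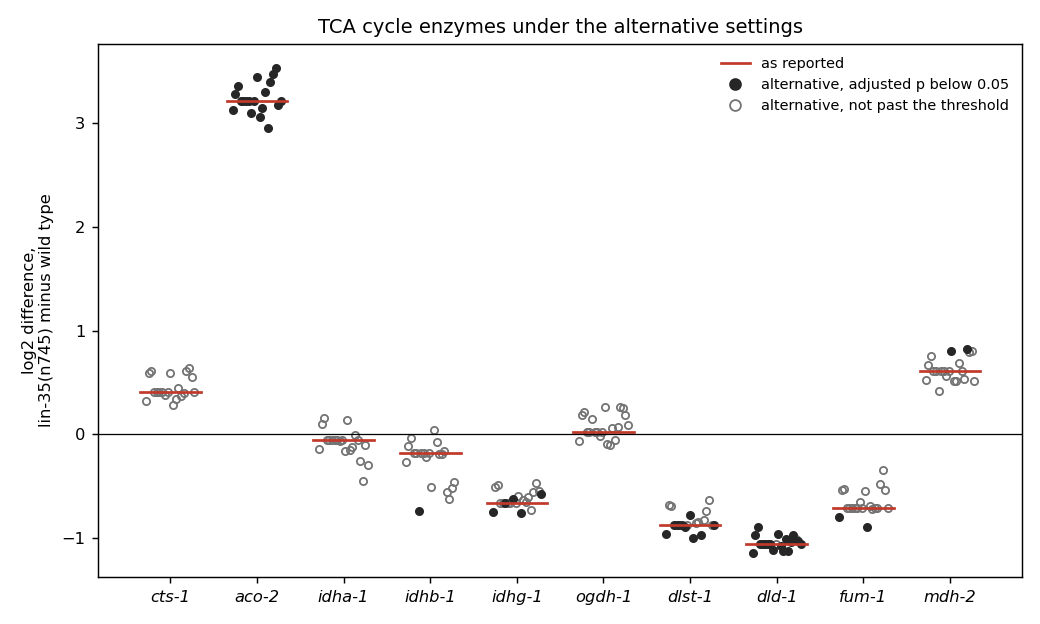
Log2 difference, lin-35(n745) minus wild type, of the 10 enzymes as reported (red line) and under each alternative setting (points, filled where the adjusted p was below 0.05). All points of aco-2 are filled and lie between 2.95 and 3.53, dld-1 stays between −1.14 and −0.89, and the points of idha-1, idhb-1 and ogdh-1 fall on both sides of 0.

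Genes that feed pyruvate into the cycle were compared in the same fit, as were those that fill or drain it. These lists were drawn up by function, with earlier results of these data known. Of 7 genes of the pyruvate dehydrogenase complex, its regulators and the mitochondrial pyruvate carrier, 2 fell (28.6%) and none rose. In either direction 11.8% of all genes and 19.7% of those as bright as the enzymes passed, with 6.12% and 15.1% falling. The median difference of the 7 was −0.53. Both called genes encode the E1 subunits of the complex. The alpha subunit pdha-1 read 10.967, 11.194 and 11.145 in lin-35(n745), against 11.940, 12.032 and 11.796 in wild type, with no overlap. It fell by 0.82 (SE 0.15, adjusted p = 0.0156). The call did not survive the loss of wild-type replicate 1 (0.0763) or 2 (0.054), and the alternatives gave 0.00965 to 0.748. The dimmer pdha-1 probe set differed by −0.49 and did not pass (adjusted p = 0.1), although its groups did not overlap. The beta subunit pdhb-1 read 10.592, 9.831 and 10.048 in lin-35(n745), against 11.129, 11.096 and 11.017 in wild type, also apart. It fell by 0.92 (SE 0.21, adjusted p = 0.0356), a call kept without mutant replicate 1 (0.0106) and lost without mutant replicate 2 (0.0759) or 3 (0.107) and without wild-type replicate 1 (0.124), 2 (0.0995) or 3 (0.0777). It was also lost after repeated quantile normalization (0.0505) and cyclic loess (0.0568), and the alternatives gave at most 0.75. Its dimmer probe set fell by 1.67 (adjusted p = 0.00455), and it gave the lowest value among the alternatives (0.00473). The E2 subunit dlat-1 differed by −0.42 (95% interval −0.77 to −0.08, adjusted p = 0.11), and the carrier genes mpc-1 and mpc-2 by −0.63 and −0.53 (adjusted p = 0.0691 and 0.0626).

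Of 15 genes that fill or drain the cycle, 2 rose and none fell on the brightest probe set, with a median difference of −0.27. Their share of 13.3% is near the 11.8% of all genes called in either direction. The shares that rose were 5.71% of all genes and 4.63% of those as bright as the enzymes. The isocitrate lyase and malate synthase gene icl-1, which takes isocitrate into the glyoxylate shunt and so acts on the product of aconitase, read 10.805, 12.125 and 12.079 in lin-35(n745), against 8.586, 8.315 and 8.305 in wild type. All mutant arrays were more than 2 units above the wild-type arrays, and the difference was 3.27 (SE 0.35, adjusted p = 0.00237), beside 3.21 for aco-2. It passed in all 19 alternatives that measured it (adjusted p 0.00039 to 0.0156). Each of its 3 probe sets rose, by 3.11 to 3.42. The ATP citrate lyase gene acly-2, whose product cleaves citrate in the cytosol, read 8.533, 8.644 and 8.681 in lin-35(n745), against 7.758, 7.646 and 7.871 in wild type. Its groups were apart and it rose by 0.86 (SE 0.14, adjusted p = 0.0112). Leaving out wild-type replicate 1 ended the call (0.0602), and the alternatives gave 0.00661 to 0.54. Pyruvate carboxylase pyc-1, which makes oxaloacetate from pyruvate, differed by 0.59 (95% interval 0.09 to 1.09, adjusted p = 0.125), and the phosphoenolpyruvate carboxykinases pck-1 and pck-2, which draw it off, by −0.32 and −0.42 (adjusted p = 0.46 and 0.168). The malic enzyme gene men-1 differed by −0.56 (adjusted p = 0.114), and its dimmer probe set fell by 0.73 (adjusted p = 0.0439). Of 6 paralogues and cytosolic or NADP-linked counterparts, aco-1 alone passed (16.7%, near the 11.8% of all genes and 19.7% of those as bright as the enzymes). The NADP-dependent isocitrate dehydrogenases idh-1 and idh-2 differed by 0.34 (95% interval −0.17 to 0.86) and −0.15 (−0.49 to 0.19). On the dimmer idh-1 probe set the difference was 0.56 (adjusted p = 0.0874), without overlap.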

How the data were processed

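RNA of 3 lin-35(n745) and 3 wild-type samples was hybridised to a single-colour Affymetrix array, 1 array per sample, from 6 µg of total RNA per the labels' protocols. The labels call the arrays of a genotype biological replicates. The authors deposited log2 values, 1 per probe set, and the submitters' processing notes name RMA, which corrects background, normalises quantiles and summarises probes. It would hide a shift of all transcripts in 1 direction and compresses dim signals. For RMA, version and filters were not given in the sources used here. The number of arrays limits the precision.

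Of 22625 probe sets, 77 controls were left out and 22548 tested with limma 3.58.1 (lmFit, eBayes, two-sided) in R 4.3.3, with no further normalization and Benjamini-Hochberg adjustment over all of them. The fit had 4 residual and 3.24 prior degrees of freedom. The platform annotation gave 1 symbol to 20766 probe sets, several to 887 and none to 895, and 0 symbols changed when checked through Entrez identifiers against WBcel235. The fit was tested on simulated data.

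The 10 enzymes and the other lists were chosen with earlier results of these data known. Named were all 10 enzymes, lin-35, called genes of the 4 metabolic lists and others compared with an enzyme, called markers, and the 5 genes of most similar profile, plus genes adjacent to an enzyme on the chromosome that passed and those beside aco-2, chosen after their values were seen. Alternatives covered normalization, filters, the probe set used, variance settings, array weights, a replicate block, treat and single arrays left out. After seeing the data 3 were added: the actin 3' to 5' difference as a covariate, and 2 pairs of arrays left out.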

Additional observations from a re-analysis of the deposited data

How the results depend on the processing

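Of the 10 enzymes, aco-2 passed in all 19 alternatives that measured it, dld-1 in 18 of 20, dlst-1 in 10 of 19 and idhg-1 in 7 of 20, with no sign changed among these genes. The number of enzymes called was 2 after repeated quantile normalization and after cyclic loess, 1 when a fold above 1.5 was required, 1 without mutant replicates 1 and 3 together, and 2 without wild-type replicate 2 and mutant replicate 1 together. It ranged from 2 to 5 with single arrays left out, where all probe sets called ranged from 1002 to 2380. Over the same fits the pyruvate dehydrogenase count ranged from 0 to 2, the counterparts from 0 to 1, the genes that fill or drain the cycle from 1 to 2, the succinyl-CoA ligase and succinate dehydrogenase genes from 0 to 1, and the median of the 10 enzymes from −0.334 to −0.025. That median was −0.205 with median centring, −0.007 with repeated quantiles, 0.062 with cyclic loess, −0.664 without probe sets that can match several transcripts (7 enzymes left), −0.368 with the actin covariate, −0.396 and −0.309 without the first and second pair of arrays, and −0.378 with all probe sets of each gene averaged. All probe sets called numbered 1643 without probe sets that match several transcripts, 523 with the 1.5-fold requirement and 768 without mutant replicates 1 and 3, where the single mutant array is taken to vary like the other group. The pyruvate dehydrogenase count was 4 with median centring, 0 with the 1.5-fold requirement, and 1 with repeated quantiles, cyclic loess, probe sets of several transcripts left out, or either pair of arrays left out. The counterparts count was 0 with the 1.5-fold requirement, the actin covariate or either pair left out, and the count of genes that fill or drain the cycle was 1 with the 1.5-fold requirement, without probe sets that match several transcripts, and without mutant replicates 1 and 3. Signs of genes that were not called turned as follows. For ogdh-1 the difference was −0.061 with median centring and −0.017 with array weights, and −0.098 to 0.26 with single arrays left out. For idha-1 it was 0.097 with repeated quantiles and 0.155 with cyclic loess, and −0.16 to 0.139 with single arrays left out. For idhb-1 it ranged from −0.508 to 0.038 with single arrays left out and was −0.514 without the second pair. For lin-35 it was −0.023 with median centring, −0.002 with repeated quantiles, −0.004 with array weights, −0.032 with the actin covariate, −0.172 without wild-type replicate 2 and mutant replicate 1, and −0.065 to 0.184 with single arrays left out. The causes of these changes were not tested.

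The deviations of same-numbered arrays correlated at 0.048, 0.083 and 0.073, and mutant replicate 1 correlated best with wild-type replicate 3 (0.165), so the numbers were not taken to pair the arrays. With the replicate number as a block 3063 probe sets and 3 of the 10 enzymes passed, idhg-1 not among them (adjusted p = 0.0582).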

Other observations

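The 20 protein-coding genes adjacent to the 10 enzymes on the WBcel235 annotation were all measured, of which 2 rose and 2 fell. Of all genes 5.71% rose and 6.12% fell, and so small a count of neighbours was not tested against these shares. The neighbours of aco-2, eef-1B.1 and C06G4.4, differed by −0.20 and −0.22 (adjusted p = 0.49 for each). The rising neighbours were the RNA interference gene rde-4 beside cts-1 (2.39, adjusted p = 0.00122) and let-765 beside mdh-2 (1.65, adjusted p = 0.00249). The falling ones were cif-1 beside ogdh-1 (−0.85, adjusted p = 0.0164) and H14A12.5 beside fum-1 (−1.33, adjusted p = 0.0418).

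The mean of the 10 enzymes, each centred on its own mean, stood at −0.130, 0.132 and 0.104 on mutant replicates 1 to 3. It stood at 0.014, −0.119 and −0.001 on wild-type replicates 1 to 3, and the groups overlapped. With aco-2 left out, the mean was −0.273, −0.066 and −0.079 on mutant replicates 1 to 3. On wild-type replicates 1 to 3 it was 0.176, 0.106 and 0.136, so every mutant array lay below every wild-type array. The genes cts-1, ogdh-1 and mdh-2, with higher mutant means, remained in it. The gene left out was the only enzyme that rose, and no falling enzyme was left out in turn. Leaving it out by itself lowers the mutant arrays against the wild-type arrays, so the separation does not show a fall of the cycle as a whole. Among 2085 genes of at least the same brightness outside the lists, those most like the mean of all 10 over the 6 arrays were aakb-1, pdi-3, ifb-1, hsp-43 and tba-1, with Pearson correlations of 0.94 to 0.97, and none of these 5 passed (adjusted p 0.337 to 0.771).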
